A study of Mus musculus with 10 samples.

Results

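The neutrophil granule genes followed here are 10 genes: Mpo, Elane, Prtn3 and Ctsg of the primary granules, Ngp, Ltf, Lcn2 and Camp of the secondary granules, and the S100 pair S100a8 and S100a9. Each was taken from the 1 probe set annotated to that symbol alone, and all 10 were among the 19938 genes measured. They were read in 10 Affymetrix arrays of total RNA from splenic cDC1s, a subset of conventional dendritic cells specialised in presenting antigen from dead cells to CD8 T cells. The genotypes were Zeb2 KO (3 arrays), Nfil3 Zeb2 DKO (2 arrays), Zeb2 Id2 DKO (2 arrays) and WT (3 arrays), so that all 3 knockout genotypes lack Zeb2 and the double knockouts lack Nfil3 or Id2 as well. How and in which cells the genes were deleted, the strain and age of the mice, any pooling of animals and the sorting gate are not given in the sources used here. The labels do not say whether replicates are separate animals, and p-values measure the spread between these samples only.

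Neutrophils store antimicrobial proteins in granules that form in sequence while the cell matures in the bone marrow. Primary (azurophil) granules are filled first, at the promyelocyte stage, with myeloperoxidase and serine proteases, and transcription of their genes then stops. Secondary (specific) granules are filled later, at the myelocyte and metamyelocyte stages, with lactoferrin, lipocalin and the cathelicidin precursor. S100a8 and S100a9 form calprotectin, an abundant calcium- and zinc-binding complex of the neutrophil cytosol that monocytes also make. Dendritic cells share with neutrophils an origin in bone marrow progenitors, and C/EBP factors and PU.1 drive many granule genes there.

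The markers of the labelled cell type were present. A list of 10 cDC1 identity genes, among them the chemokine receptor gene Xcr1, the dead-cell receptor gene Clec9a and the transcription factor genes Irf8 and Batf3, had mean levels of 11.13 to 11.28 log2 over the arrays, -0.12 to 0.03 from the WT mean, and 1 of the 10 was called against WT (Cadm1, lower in Zeb2 Id2 DKO). Of the deleted genes, Nfil3 (log2 fold change -3.84, limma adjusted p = 0.000622) fell in Nfil3 Zeb2 DKO cells, and Id2 (-5.31, adjusted p = 6.58e-09) fell in Zeb2 Id2 DKO. Zeb2 had levels of 5.40 to 6.27 log2 in Zeb2 KO and 5.93 to 6.30 in WT (log2 fold change -0.16, adjusted p = 0.929). Zeb2 Id2 DKO arrays lay above WT for Zeb2 without overlap (log2 fold change 0.72, not called). Those of Nfil3 Zeb2 DKO overlapped with WT (0.27, not called). The Zeb2 probe set therefore does not check the Zeb2 deletion in any of these genotypes. WT replicate 1 stood apart by its B cell genes (1.11 log2 above the WT mean), and Zeb2 KO replicate 3 received the lowest of limma's array weights (0.187).

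Granule genes had higher means in all 3 Zeb2-deleted genotypes than in WT, and most of these differences passed the test over all genes in Zeb2 Id2 DKO but not in the other genotypes; whether the genotypes differ from each other is tested separately. Differences were tested with limma in 1 fit of all genes and arrays, and a gene was called at a Benjamini-Hochberg adjusted p under 0.05. Against WT, 9 of 10 members rose in Zeb2 Id2 DKO, where 0.878% of all genes rose. In Zeb2 KO only Ngp rose, 1 of 10, and it was the only gene of all genes called higher there (0.00502%). At an unadjusted limma p under 0.05 all 10 were higher in Zeb2 KO (3.64% of all genes) and in Zeb2 Id2 DKO (5.48%). In Nfil3 Zeb2 DKO 0 of 10 rose, as did 0% of all genes, and 4 of 10 were higher at an unadjusted limma p under 0.05 against 1.98% of all genes. Median log2 fold changes of the 10 genes were 2.47 in Zeb2 KO cells, 1.07 in Nfil3 Zeb2 DKO cells and 2.51 in Zeb2 Id2 DKO, beside -0.00296, 0.01 and -0.01 over all genes. In such bulk arrays, a change in the number of cells carrying a transcript and a change in the transcript per cell cannot be told apart. All 3 comparisons share the WT arrays. The members were chosen with earlier results of these data known, so the shares over all genes describe the members and do not test them as a set.

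**Figure D1:**
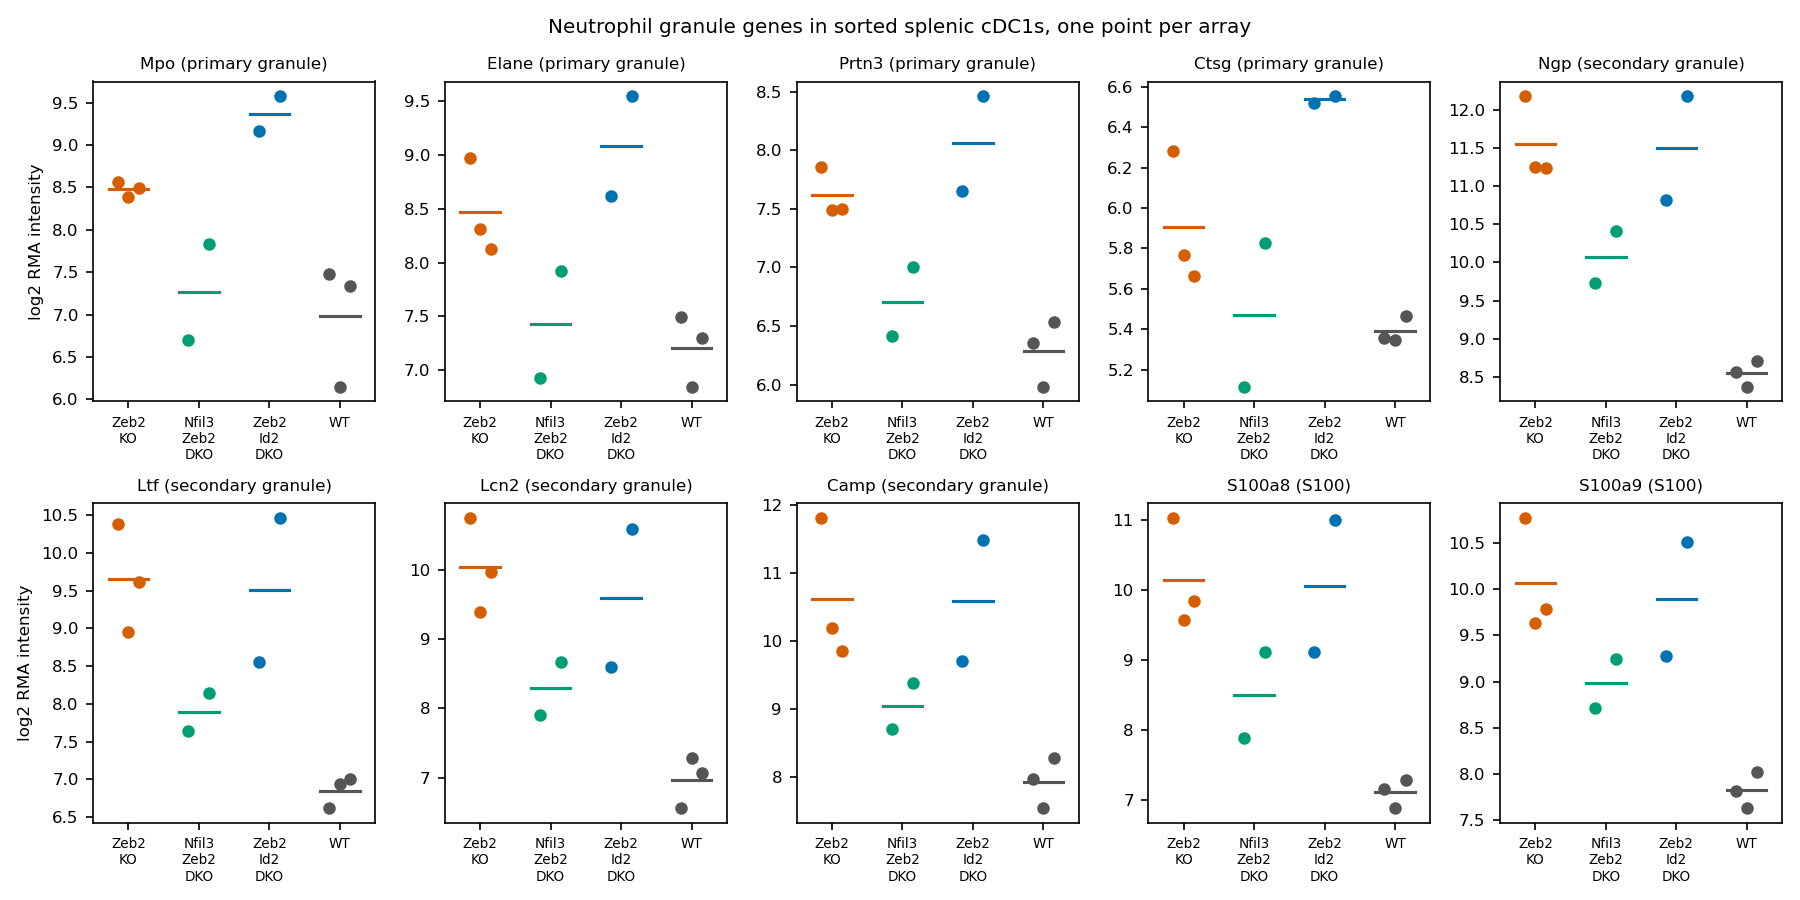
Log2 RMA intensity (y axis) of the 10 granule genes in each array, with genotypes along the x axis. Points are arrays and bars are group means; y axes differ between panels. In Ngp all arrays of Zeb2 KO (11.24 to 12.18), Nfil3 Zeb2 DKO (9.73 and 10.41) and Zeb2 Id2 DKO (10.82 and 12.18) lie above those of WT (8.37 to 8.71).

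Ngp and Ltf, secondary granule genes on the same chromosome, are shown by the bases before their transcription start, because they moved together and their windows hold the same C/EBP-like letters. These 250-base stretches come from RefSeq (GRCm38.p6), at chr9:110419558-110419807 and chr9:111019042-111019291, both on the plus strand and written 5′ to 3′. Capitals mark matches to TTGCNNAA on either strand.
Ngp: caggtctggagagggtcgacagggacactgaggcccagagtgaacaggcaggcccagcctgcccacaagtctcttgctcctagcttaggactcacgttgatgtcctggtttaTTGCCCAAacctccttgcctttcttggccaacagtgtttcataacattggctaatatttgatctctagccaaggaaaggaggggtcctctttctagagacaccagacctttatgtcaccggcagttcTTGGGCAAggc
Ltf: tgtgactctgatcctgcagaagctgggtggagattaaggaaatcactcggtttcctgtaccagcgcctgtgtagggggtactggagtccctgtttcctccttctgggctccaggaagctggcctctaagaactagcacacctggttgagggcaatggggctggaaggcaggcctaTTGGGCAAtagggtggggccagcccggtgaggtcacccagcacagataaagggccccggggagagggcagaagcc
The matches lay 138 and 11 bases before the start of Ngp and 75 bases before that of Ltf. A window of 250 bases before to 50 bases after the start held TTGCNNAA on either strand in 3 of 4 secondary granule genes (Ngp, Ltf and Lcn2), 1 of 2 S100 genes (S100a9) and 0 of 4 primary granule genes, against 10.8% of all 32841 promoter windows. Such a match is a description of the letters, not a binding site.

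Ngp encodes neutrophilic granule protein, a relative of the cathelicidins stored in specific granules. It had 12.18, 11.25 and 11.24 log2 in Zeb2 KO cells, 9.73 and 10.41 in Nfil3 Zeb2 DKO cells, and 10.82 and 12.18 in Zeb2 Id2 DKO, against 8.57, 8.37 and 8.71 in WT. Every array of the knockouts lay above every WT array, and the Nfil3 Zeb2 DKO arrays lay between the others. Its log2 fold change against WT was 3.01 [2.25 to 3.77] in Zeb2 KO cells (adjusted p = 0.0255), 1.52 [0.67 to 2.37] in Nfil3 Zeb2 DKO cells (adjusted p = 0.766) and 2.95 [2.10 to 3.80] in Zeb2 Id2 DKO (adjusted p = 0.0048). Brackets hold 95% confidence intervals. With each array left out in turn, Ngp was called in Zeb2 Id2 DKO in 10 of 10 fits (log2 2.28 to 3.63), and in Zeb2 KO in 4 of 10 (adjusted p up to 0.181), the losses being without WT replicate 2 or 3, Zeb2 KO replicate 1 or 2, or either Nfil3 Zeb2 DKO array.

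Ltf, the gene of the iron-binding protein lactoferrin, stood at 10.39, 8.95 and 9.61 log2 in Zeb2 KO cells, 7.64 and 8.14 in Nfil3 Zeb2 DKO cells, and 8.56 and 10.47 in Zeb2 Id2 DKO, against 6.62, 6.93 and 7.0 in WT. The WT arrays were again the lowest, with no overlap. Ltf rose 6.32-fold in Zeb2 Id2 DKO (log2 2.66 [1.55 to 3.77], adjusted p = 0.029). Its log2 fold change was 2.80 [1.80 to 3.79] in Zeb2 KO (adjusted p = 0.117) and 1.04 [-0.07 to 2.15] in Nfil3 Zeb2 DKO (adjusted p = 1.0).

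Lcn2 encodes lipocalin-2, which captures bacterial siderophores and which many other cells make when stimulated. It had 10.76, 9.40 and 9.97 log2 in Zeb2 KO cells, 7.91 and 8.67 in Nfil3 Zeb2 DKO cells, and 8.60 and 10.60 in Zeb2 Id2 DKO, against 6.56, 7.29 and 7.07 in WT. No knockout array reached down to the WT range. The rise was 6.20-fold in Zeb2 Id2 DKO (log2 2.63 [1.45 to 3.81], adjusted p = 0.0394), and in Zeb2 KO the log2 fold change of 3.07 [2.02 to 4.13], rank 1 among all 19938 genes by size of the increase, did not pass (adjusted p = 0.107). In Nfil3 Zeb2 DKO it was 1.32 [0.14 to 2.50] (adjusted p = 1.0).

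Camp, the gene of the cathelicidin antimicrobial peptide, was the only member not called in any comparison. Its levels were 11.81, 10.19 and 9.86 log2 in Zeb2 KO cells, 8.71 and 9.38 in Nfil3 Zeb2 DKO cells, and 9.71 and 11.48 in Zeb2 Id2 DKO, against 7.97, 7.55 and 8.28 in WT. The groups did not overlap with WT, but the spread within Zeb2 KO and within Zeb2 Id2 DKO was wide (SD 1.04 and 1.25). Log2 fold changes were 2.69 [1.53 to 3.84] in Zeb2 KO cells (adjusted p = 0.212), 1.11 [-0.18 to 2.41] in Nfil3 Zeb2 DKO cells (adjusted p = 1.0) and 2.66 [1.36 to 3.95] in Zeb2 Id2 DKO (adjusted p = 0.0587).

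S100a8 and S100a9, the calprotectin subunits, ran close to the secondary granule genes. S100a8 had 11.03, 9.56 and 9.83 log2 in Zeb2 KO cells, 7.89 and 9.11 in Nfil3 Zeb2 DKO cells, and 9.12 and 11.0 in Zeb2 Id2 DKO, against 7.16, 6.88 and 7.28 in WT. S100a9 had 10.78, 9.63 and 9.79 in Zeb2 KO cells, 8.72 and 9.24 in Nfil3 Zeb2 DKO cells, and 9.28 and 10.51 in Zeb2 Id2 DKO, against 7.82, 7.63 and 8.02 in WT. For both genes all knockout arrays exceeded all WT arrays.

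In Zeb2 Id2 DKO, S100a8 rose 7.73-fold (log2 2.95 [1.72 to 4.18], adjusted p = 0.029) and S100a9 4.21-fold (2.07 [1.23 to 2.92], adjusted p = 0.0258). In Zeb2 KO the log2 fold changes were 3.04 [1.94 to 4.14] for S100a8 (adjusted p = 0.117) and 2.24 [1.49 to 3.0] for S100a9 (adjusted p = 0.106). In Nfil3 Zeb2 DKO they were 1.39 [0.16 to 2.62] (adjusted p = 1.0) and 1.16 [0.32 to 2.0] (adjusted p = 0.982). S100a8 and S100a9 are neighbours on chromosome 3 and belong to a family with related sequences.

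The primary granule genes Elane and Prtn3 lie next to each other on chromosome 10, and all 4 primary granule genes held the PU.1-like letters GAGGAA on either strand of the promoter window, against 2 of 4 secondary granule genes, 1 of 2 S100 genes and 28.3% of all windows. The bases before the starts of Elane (chr10:79886062-79886311) and Prtn3 (chr10:79879417-79879666), RefSeq, GRCm38.p6, plus strand, are shown with this match in capitals, since these neighbours carry it at a similar distance.
Elane: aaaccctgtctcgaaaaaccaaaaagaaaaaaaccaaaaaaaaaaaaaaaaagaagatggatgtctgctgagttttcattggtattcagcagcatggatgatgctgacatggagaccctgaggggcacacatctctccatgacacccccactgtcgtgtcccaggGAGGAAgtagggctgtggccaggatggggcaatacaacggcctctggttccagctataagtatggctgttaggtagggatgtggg
Prtn3: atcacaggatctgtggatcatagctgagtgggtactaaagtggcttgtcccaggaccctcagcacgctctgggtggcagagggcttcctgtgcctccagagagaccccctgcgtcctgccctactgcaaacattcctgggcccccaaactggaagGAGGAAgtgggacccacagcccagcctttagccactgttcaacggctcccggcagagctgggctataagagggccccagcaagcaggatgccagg
The match lay 85 bases before the start of Elane and 95 bases before that of Prtn3. CACCTG, an E-box that ZEB and E proteins can bind, was found on either strand in 3 of 10 members (Ctsg, Ltf and S100a9; 20.2% of all windows), and TTACNTAA, an NFIL3-like motif, in 0 of 10 (2.32% of all windows). Matches to different motifs did not overlap in any member. No match says only that these letters are not in this window.

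Mpo encodes myeloperoxidase, which makes hypochlorous acid. It had 8.57, 8.38 and 8.49 log2 in Zeb2 KO cells, 6.70 and 7.84 in Nfil3 Zeb2 DKO cells, and 9.16 and 9.58 in Zeb2 Id2 DKO, against 7.47, 6.15 and 7.33 in WT. Unlike in Ngp, 1 Nfil3 Zeb2 DKO array lay within the WT range. Mpo rose 5.22-fold in Zeb2 Id2 DKO (log2 2.38 [1.53 to 3.24], adjusted p = 0.0142). Its log2 fold change was 1.49 [0.73 to 2.26] in Zeb2 KO (adjusted p = 0.265) and 0.29 [-0.57 to 1.14] in Nfil3 Zeb2 DKO (adjusted p = 1.0).

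Elane, the gene of neutrophil elastase, had 8.97, 8.31 and 8.13 log2 in Zeb2 KO cells, 6.93 and 7.92 in Nfil3 Zeb2 DKO cells, and 8.62 and 9.55 in Zeb2 Id2 DKO, against 7.49, 6.85 and 7.30 in WT. Prtn3, the gene of proteinase 3, had 7.86, 7.49 and 7.50 in Zeb2 KO cells, 6.41 and 7.0 in Nfil3 Zeb2 DKO cells, and 7.65 and 8.46 in Zeb2 Id2 DKO, against 6.36, 5.98 and 6.53 in WT. Both genes separated Zeb2 KO and Zeb2 Id2 DKO from WT, and for both 1 Nfil3 Zeb2 DKO array lay within the WT range. Elane rose 3.66-fold (log2 1.87 [1.08 to 2.66], adjusted p = 0.0308) and Prtn3 3.41-fold (1.77 [1.21 to 2.33], adjusted p = 0.00726) in Zeb2 Id2 DKO. In Zeb2 KO their values were 1.26 [0.55 to 1.96] (adjusted p = 0.332) and 1.33 [0.82 to 1.83] (adjusted p = 0.121), and in Nfil3 Zeb2 DKO 0.21 [-0.57 to 1.0] and 0.42 [-0.14 to 0.98] (adjusted p = 1.0 each).

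Ctsg, the gene of cathepsin G, stood at 6.28, 5.77 and 5.66 log2 in Zeb2 KO cells, 5.12 and 5.82 in Nfil3 Zeb2 DKO cells, and 6.52 and 6.55 in Zeb2 Id2 DKO, against 5.36, 5.35 and 5.47 in WT. As in Mpo, the Zeb2 Id2 DKO arrays lay above every other array. The rise in Zeb2 Id2 DKO was 2.21-fold (log2 1.15 [0.69 to 1.61], adjusted p = 0.0245). Zeb2 KO had 0.51 [0.10 to 0.93] (adjusted p = 0.537) and Nfil3 Zeb2 DKO 0.08 [-0.38 to 0.54] (adjusted p = 1.0).

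**Figure D2:**
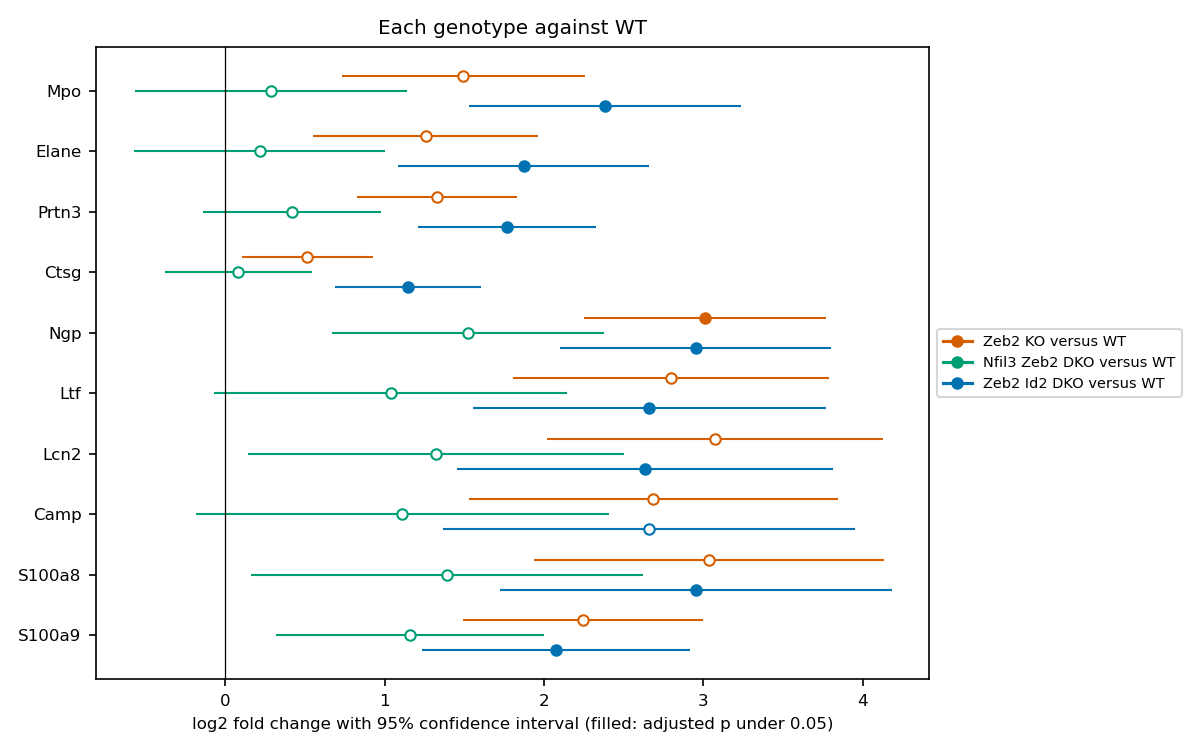
Log2 fold change against WT (x axis) of the 10 granule genes (y axis) in the 3 Zeb2-deleted genotypes (colours), with 95% confidence intervals from limma; filled points passed an adjusted p under 0.05. Zeb2 Id2 DKO has 9 filled points, Zeb2 KO has 1 (Ngp) and Nfil3 Zeb2 DKO has 0.

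Arrays without overlap were common among the members. All 10 were higher without overlap in Zeb2 KO (5.37% of all genes) and in Zeb2 Id2 DKO (15.2%), and 6 of 10 were in Nfil3 Zeb2 DKO (13.1%), namely all 4 secondary granule genes and both S100 genes. None of the 4 primary granule genes separated Nfil3 Zeb2 DKO from WT.

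The calls, and those over all genes, depended on single arrays. In Zeb2 Id2 DKO against WT, where 1.43% of all genes were called in either direction, 1 member (Ngp) was called without Zeb2 Id2 DKO replicate 2 (0.336% of all genes in that fit). There were 3 (Mpo, Prtn3 and Ngp) without WT replicate 2 (0.682%) or without WT replicate 3 (0.602%), and 4 without WT replicate 1 (1.39%). In Zeb2 KO against WT, where 0.0201% of all genes were called, it was 7 members without Zeb2 KO replicate 3 (0.828%) and 4 without either Zeb2 Id2 DKO array (0.0351%). It was 0 without WT replicate 2 or 3, Zeb2 KO replicate 1 or 2, or either Nfil3 Zeb2 DKO array (0% to 0.01%). With WT replicate 1 and Zeb2 KO replicate 3, the arrays that stood apart, both removed, 9 members (all but Ctsg) were called in Zeb2 KO, where 2.51% of all genes were. All 10 were called in Zeb2 Id2 DKO, where 5.54% of all genes were; this setting was chosen after seeing the data.

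Single arrays also moved the size of the differences in Zeb2 Id2 DKO. With each array left out in turn, the log2 fold change against WT ran from 1.7 to 3.62 for Ltf, 1.63 to 3.63 for Lcn2 and 1.77 to 3.54 for Camp. It ran from 2.01 to 3.89 for S100a8 and 1.46 to 2.69 for S100a9. The lower ends were reached without Zeb2 Id2 DKO replicate 2 and the upper ends without its replicate 1. The primary granule genes ranged less, from 1.96 to 2.63 for Mpo, 1.41 to 2.33 for Elane, 1.36 to 2.17 for Prtn3 and 1.12 to 1.19 for Ctsg.

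The order of the genotypes was shared by members of a set. WT was lowest and Nfil3 Zeb2 DKO next to lowest by group mean in all 10 genes. For Mpo, Elane and Ctsg this order rested on Nfil3 Zeb2 DKO replicate 2, without which that genotype was below WT (-0.28, -0.28 and -0.27 log2), and for Mpo also on WT replicate 2 (-0.13 without it). Zeb2 Id2 DKO was highest in the 4 primary granule genes, and Zeb2 KO was highest in the 4 secondary granule and 2 S100 genes. Neighbours in that order were not told apart by the test over all genes. None of the 10 was called between Nfil3 Zeb2 DKO and WT or between Zeb2 Id2 DKO and Zeb2 KO, none of the 4 primary granule genes between Zeb2 KO and Nfil3 Zeb2 DKO, and none of the other 6 between Zeb2 Id2 DKO and Nfil3 Zeb2 DKO.

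Nfil3 Zeb2 DKO was lower than Zeb2 KO in all 10 members, with log2 fold changes of -0.43 to -1.76 and 0 of 10 called (adjusted p = 0.374 or above; 0% of all genes were called higher and 0.00502% lower). At an unadjusted limma p under 0.05, 9 of 10 were lower, against 4.45% of all genes, the exception being Ctsg. Ltf had the largest difference, -1.76 [-2.87 to -0.65], followed by Lcn2 with -1.75 [-2.93 to -0.57]. Ngp had -1.49 [-2.34 to -0.64] and Mpo -1.21 [-2.06 to -0.35]. The arrays of the genotypes did not overlap in 9 of 10 members (10.2% of all genes were lower without overlap).

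Between Zeb2 Id2 DKO and Zeb2 KO, the sets differed in sign. The 4 primary granule genes had positive values, 0.89 [0.04 to 1.74] for Mpo, 0.62 [-0.17 to 1.40] for Elane, 0.44 [-0.12 to 1.0] for Prtn3 and 0.63 [0.17 to 1.09] for Ctsg, and none passed (adjusted p = 0.402 or above). The secondary granule and S100 genes lay near 0, from -0.44 [-1.62 to 0.74] for Lcn2 to -0.03 [-1.32 to 1.27] for Camp, with intervals wide enough to hold 2-fold differences either way for Camp and S100a8. Called were 0 of 10, against 0.366% of all genes higher and 0.13% lower. At an unadjusted limma p under 0.05, Mpo and Ctsg were higher (2 of 10, against 4.35% of all genes), and the arrays of these 2 genes did not overlap (10% of all genes). Signs of the secondary granule and S100 genes turned with the array left out: without Zeb2 Id2 DKO replicate 1 all 6 were positive (0.45 to 0.86).

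Between Zeb2 Id2 DKO and Nfil3 Zeb2 DKO, all 10 members had positive log2 fold changes and 0 of 10 were called, against 0.582% of all genes. At an unadjusted limma p under 0.05, 9 of 10 were higher, against 6.28% of all genes, and 9 of 10 did not overlap, against 22.9%. Primary granule genes came closest, with Mpo at 2.10 [1.16 to 3.03] (adjusted p = 0.055), Prtn3 at 1.35 [0.74 to 1.97] (0.0574), Ctsg at 1.07 [0.56 to 1.57] (0.0648) and Elane at 1.66 [0.79 to 2.52] (0.0891). All 4 were called when only the arrays of these genotypes were fitted, where 4.18% of all genes were called, or without Zeb2 KO replicate 3, where 3.53% were, against 0.792% with all arrays (either direction). Secondary granule and S100 genes had 0.92 to 1.62 (adjusted p = 0.18 or above). These comparisons share arrays with those against WT.

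**Figure D3:**
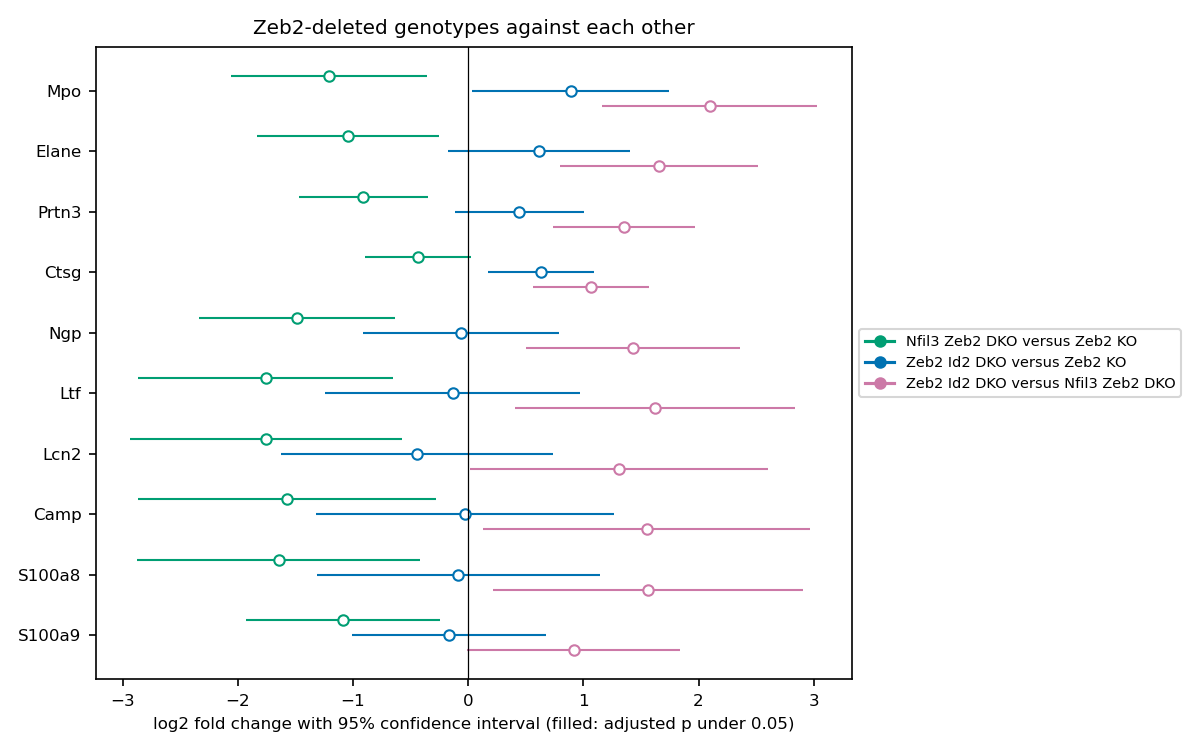
Log2 fold changes (x axis) of the 10 granule genes (y axis) between Zeb2-deleted genotypes, with 95% confidence intervals from limma; no point passed an adjusted p under 0.05 (open points). In Zeb2 Id2 DKO against Zeb2 KO the 4 primary granule genes lie right of 0 (0.44 to 0.89) and the other 6 lie at or left of it (-0.44 to -0.03).

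Replicates of a genotype differed in the same direction across members. Zeb2 KO replicate 1 was the highest Zeb2 KO array in 10 of 10 members. Zeb2 Id2 DKO replicate 2 exceeded replicate 1 in 10 of 10, by 1.35 to 2.0 log2 in the secondary granule genes, 1.24 to 1.88 in the S100 genes and 0.03 to 0.92 in the primary granule genes. The gap exceeded 1 log2 in 6 of 10 members and in 0.13% of all genes (26 genes). Nfil3 Zeb2 DKO replicate 2 exceeded replicate 1 in 10 of 10 as well, by 0.51 to 1.22.

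The distance between secondary and primary granule genes varied by array. Set means above the WT mean were 3.71, 2.37 and 2.59 log2 for the secondary granule genes in Zeb2 KO cells, 0.92 and 1.57 in Nfil3 Zeb2 DKO cells, and 1.85 and 3.61 in Zeb2 Id2 DKO. For the primary granule genes they were 1.45, 1.02 and 0.98 in Zeb2 KO cells, -0.18 and 0.68 in Nfil3 Zeb2 DKO cells, and 1.52 and 2.06 in Zeb2 Id2 DKO. The S100 mean stayed within 0.31 log2 of the secondary granule mean in every array. The difference of secondary minus primary was 2.26, 1.35 and 1.62 in Zeb2 KO cells, 1.10 and 0.90 in Nfil3 Zeb2 DKO cells, and 0.33 and 1.54 in Zeb2 Id2 DKO, so the ranges of Zeb2 Id2 DKO and Zeb2 KO overlapped.

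**Figure D4:**
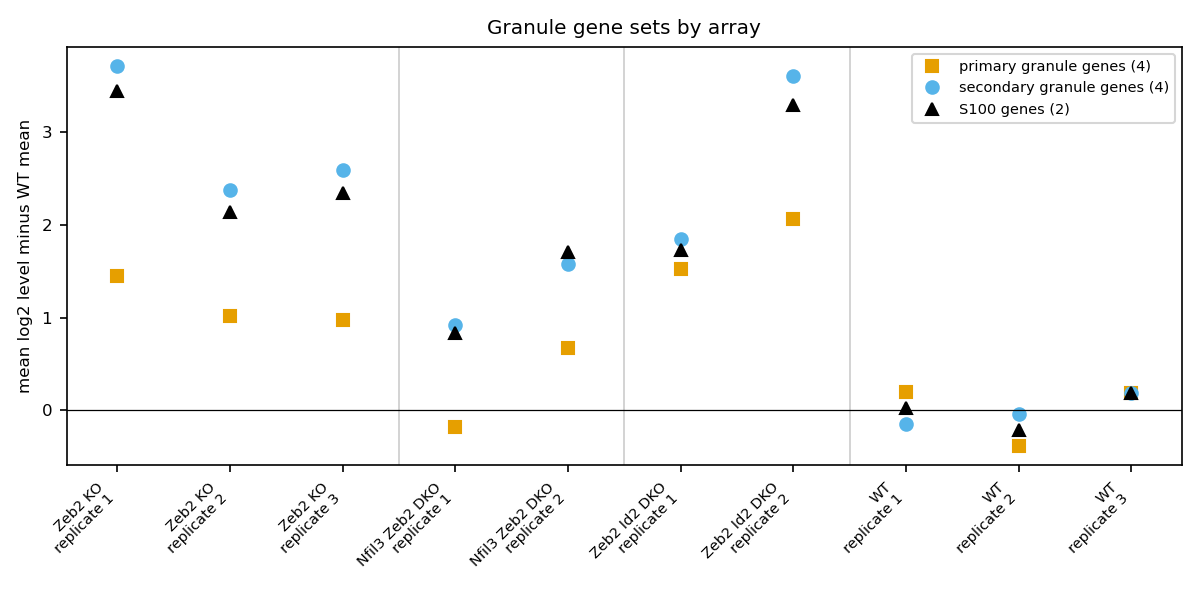
Mean log2 level of the primary granule, secondary granule and S100 genes (y axis, relative to the WT mean) in each array (x axis). Secondary granule and S100 means lie within 0.31 of each other in every array, while the primary granule mean lies 1.35 to 2.26 below the secondary one in Zeb2 KO and 0.33 and 1.54 below it in Zeb2 Id2 DKO.

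Across the 10 arrays, secondary granule and S100 genes followed each other with Pearson coefficients of 0.978 to 0.992 (8 pairs), and primary and secondary granule genes with 0.712 to 0.947 (16 pairs). These coefficients describe arrays that share genotypes and carry no test. Beyond the members, the genes most like the secondary granule mean, among 898 genes with a range of at least 1 log2, were Hp, the haptoglobin gene (0.991), Trem1, a receptor of neutrophils and monocytes (0.970), Lbp, which encodes lipopolysaccharide-binding protein (0.964), Cd177, a neutrophil surface protein gene (0.944), and Itgam, the CD11b chain (0.943). The 10 genes nearest to the S100 mean were the same 10. Nearest to the primary granule mean were Ms4a3, a gene of granulocyte-monocyte progenitors (0.963), Dhx58 (0.958), an interferon-stimulated RNA sensor gene, and Lgals9 (0.941), the galectin-9 gene, and 2 of its 10 genes (Lbp and Fcnb) were shared with the secondary list.

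Against WT, other granule genes were called in Zeb2 Id2 DKO only, where 0.878% of all genes rose. Of 10 further genes of primary granules or their processing, 2 rose in Zeb2 Id2 DKO and 0 in Zeb2 KO or Nfil3 Zeb2 DKO (medians 0.31 in Zeb2 Id2 DKO, 0.12 in Zeb2 KO and 0.05 in Nfil3 Zeb2 DKO). Risers were Prss57, a neutrophil serine protease gene (7.23 and 7.43 log2 in Zeb2 Id2 DKO against 6.31 to 6.44 in WT, log2 fold change 0.96, adjusted p = 0.00695), and Ms4a3 (6.84 and 7.72 against 5.50 to 5.85, 1.57, adjusted p = 0.0377). Without overlap with WT, 4 of the 10 were higher in Zeb2 Id2 DKO (15.2% of all genes), 2 in Zeb2 KO (5.37%) and 1 in Nfil3 Zeb2 DKO (13.1%). Bpi, a gene of a bactericidal primary granule protein, had log2 fold changes of 0.02 in Zeb2 KO cells, 0.04 in Nfil3 Zeb2 DKO cells and 0.01 in Zeb2 Id2 DKO. Its levels were low (4.11 to 4.30 log2 in Zeb2 KO and 4.14 to 4.20 in WT), so these values do not show that the gene was unchanged.

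Among 12 further secondary and tertiary granule genes, 1 rose in Zeb2 Id2 DKO (0.878% of all genes) and 0 in the other genotypes. Medians were 0.66 in Zeb2 KO cells, 0.22 in Nfil3 Zeb2 DKO cells and 0.45 in Zeb2 Id2 DKO. Of the 12, 8 were higher than WT without overlap in Zeb2 KO, 5 in the Nfil3 Zeb2 DKO and 8 in the Zeb2 Id2 DKO arrays, beside the 5.37%, 13.1% and 15.2% of all genes given above. The called gene was Pglyrp1, which encodes a peptidoglycan recognition protein (9.17 and 9.31 log2 in Zeb2 Id2 DKO against 7.79 to 7.91 in WT, log2 fold change 1.40, adjusted p = 0.00787). Values that did not pass included Chil3 at 2.16 (adjusted p = 0.07) and Hp at 1.24 (adjusted p = 0.0621) in Zeb2 Id2 DKO. Mmp8, a collagenase gene of specific granules, had 0.70 [-0.04 to 1.45] in Zeb2 KO (adjusted p = 0.698).

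Of 9 transcription factor genes of granulocyte development, 1 rose in Zeb2 Id2 DKO (0.878% of all genes). It was Cebpa, which starts the granulocyte-monocyte programme (8.59 and 8.82 log2 in Zeb2 Id2 DKO against 7.76 to 8.13 in WT, log2 fold change 0.79, limma adjusted p = 0.0128). In Zeb2 KO Cebpa had 0.53 (adjusted p = 0.212), and 0 of the 9 passed there or in Nfil3 Zeb2 DKO. Cebpe, which drives secondary granule genes, had log2 fold changes of 0.34 in Zeb2 KO cells, 0.06 in Nfil3 Zeb2 DKO cells and 0.08 in Zeb2 Id2 DKO (adjusted p = 0.566, 1.0 and 0.962). Gfi1, a repressor needed for neutrophil formation, had -0.07 in Zeb2 KO cells, -0.10 in Nfil3 Zeb2 DKO cells and -0.14 in Zeb2 Id2 DKO, and none passed.

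Markers of other cells that the sort could hold had higher values in some of the same arrays. Of 10 measured mature neutrophil markers (14 listed), 0 were called in any genotype. Their arrays lay above WT without overlap in 7 of 10 in each of Zeb2 KO (5.37% of all genes), Nfil3 Zeb2 DKO (13.1%) and Zeb2 Id2 DKO (15.2%). Their mean lay 0.25 to 0.75 log2 above the WT mean in Zeb2 KO cells, 0.18 to 0.30 in Nfil3 Zeb2 DKO cells and 0.18 to 0.75 in Zeb2 Id2 DKO, against -0.03 to 0.04 in WT. Ly6g, the gene of an antigen that defines mouse neutrophils, had 5.86, 5.17 and 5.76 log2 in Zeb2 KO cells, 4.95 and 5.24 in Nfil3 Zeb2 DKO cells, and 4.98 and 6.09 in Zeb2 Id2 DKO, against 4.96, 4.86 and 4.49 in WT. Its highest arrays, Zeb2 Id2 DKO replicate 2 and Zeb2 KO replicate 1, were also the highest in the secondary granule genes. The mean of the marker list did not keep to that order. Zeb2 KO replicates 1 and 3 both lay 0.75 above WT in it, with secondary granule means 3.71 and 2.59 above WT. Against WT, 8 of the 10 markers had positive log2 fold changes in Zeb2 KO. Asprv1 (mean 8.17 against 8.29 in WT) and Il1r2 (8.81 against 8.84) did not, and Asprv1 was highest in Nfil3 Zeb2 DKO (9.07).

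Of 12 progenitor markers, 2 rose in Zeb2 Id2 DKO, where 0.878% of all genes rose, and 0 in the other genotypes. The 2 were Ms4a3 and Prss57, which the primary granule list also holds. The list's mean lay within 0.25 log2 of WT in every array. Kit and Flt3 of that list were at 11.25 log2 or above in all arrays, WT included. Genes this high in WT make up much of the list's summed intensity, so that sum cannot show whether progenitors were present. Summed intensity of the progenitor list was 7799 to 8629 in Zeb2 KO cells, 8881 to 9298 in Nfil3 Zeb2 DKO cells and 9421 to 9423 in Zeb2 Id2 DKO, against 8710 to 9125 in WT. Summed intensity of the mature neutrophil list was 1125 to 1634 in Zeb2 KO cells, 1259 to 1283 in Nfil3 Zeb2 DKO cells and 1280 to 1659 in Zeb2 Id2 DKO, against 1021 to 1183 in WT. The part of such cells in the granule gene values was not tested.

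The basophil genes Mcpt8 and Prss34, from a list of 11 markers, were high in some of the same arrays. Mcpt8, a basophil protease gene, had 9.53, 8.66 and 5.76 log2 in Zeb2 KO cells, 6.21 and 6.54 in Nfil3 Zeb2 DKO cells, and 7.93 and 8.89 in Zeb2 Id2 DKO, against 6.59, 4.95 and 4.95 in WT. Prss34, another basophil protease gene, had 9.99, 9.26 and 6.57 in Zeb2 KO cells, 7.49 and 7.80 in Nfil3 Zeb2 DKO cells, and 8.70 and 9.82 in Zeb2 Id2 DKO, against 7.48, 6.26 and 6.36 in WT. In both genes Zeb2 KO replicate 3 lay below WT replicate 1 and above the other WT arrays. Its secondary granule mean was 2.59 above WT. The part of basophils in the granule gene values was not tested. Of 11 eosinophil, basophil and mast cell markers, 0 were called in any genotype (medians 0.68 in Zeb2 KO, 0.13 in Nfil3 Zeb2 DKO cells and 0.35 in Zeb2 Id2 DKO).

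Erythroid and interferon-stimulated lists had higher means in Zeb2 Id2 DKO. In that genotype 0.878% of all genes rose against WT, and 1.43% were called in either direction. Of 8 measured erythroid markers (14 listed), 2 rose in Zeb2 Id2 DKO (Car2, log2 1.06, adjusted p = 0.0118, and Hemgn, 0.90, adjusted p = 0.0142), and the list's mean lay 0.85 to 1.05 above WT there, 0.30 to 0.49 in Zeb2 KO and -1.07 to -0.03 in Nfil3 Zeb2 DKO. In Zeb2 Id2 DKO 7 of 11 interferon-stimulated genes rose, with list means 0.97 and 1.57 over WT. The interferon list's means were -0.08 to 0.05 from WT in Zeb2 KO. Monocyte markers (1 of 9 rose in Zeb2 Id2 DKO), megakaryocyte markers (0 of 5), B cell markers (0 of 7) and inflammatory or NF-kB response genes (0 of 16 rose and 1 fell in Zeb2 Id2 DKO) had medians of -0.01, -0.05, -0.36 and -0.17 in Zeb2 Id2 DKO and -0.11, 0.19, -0.42 and -0.10 in Zeb2 KO. Red pulp macrophage markers (2 of 12 fell in Zeb2 Id2 DKO, Hpgd and Vcam1), plasmacytoid dendritic cell markers (2 of 8 rose there) and T and NK cell markers (1 of 11 rose and 4 fell there) had medians of -0.16, 0.26 and -0.45 in Zeb2 Id2 DKO and -0.13, -0.18 and -0.20 in Zeb2 KO. Nfil3 Zeb2 DKO replicate 1, the knockout array with the lowest granule gene means, stood apart in the megakaryocyte list at 1.46 above WT, against 0.37 in its replicate 2 and at most 0.46 in the other knockout arrays. T and NK cell markers were 0.31 and 0.34 above the WT mean in Nfil3 Zeb2 DKO, against -0.14 to 0.20 in WT. The part of these lists in the granule gene values was not tested.

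**Figure D5:**
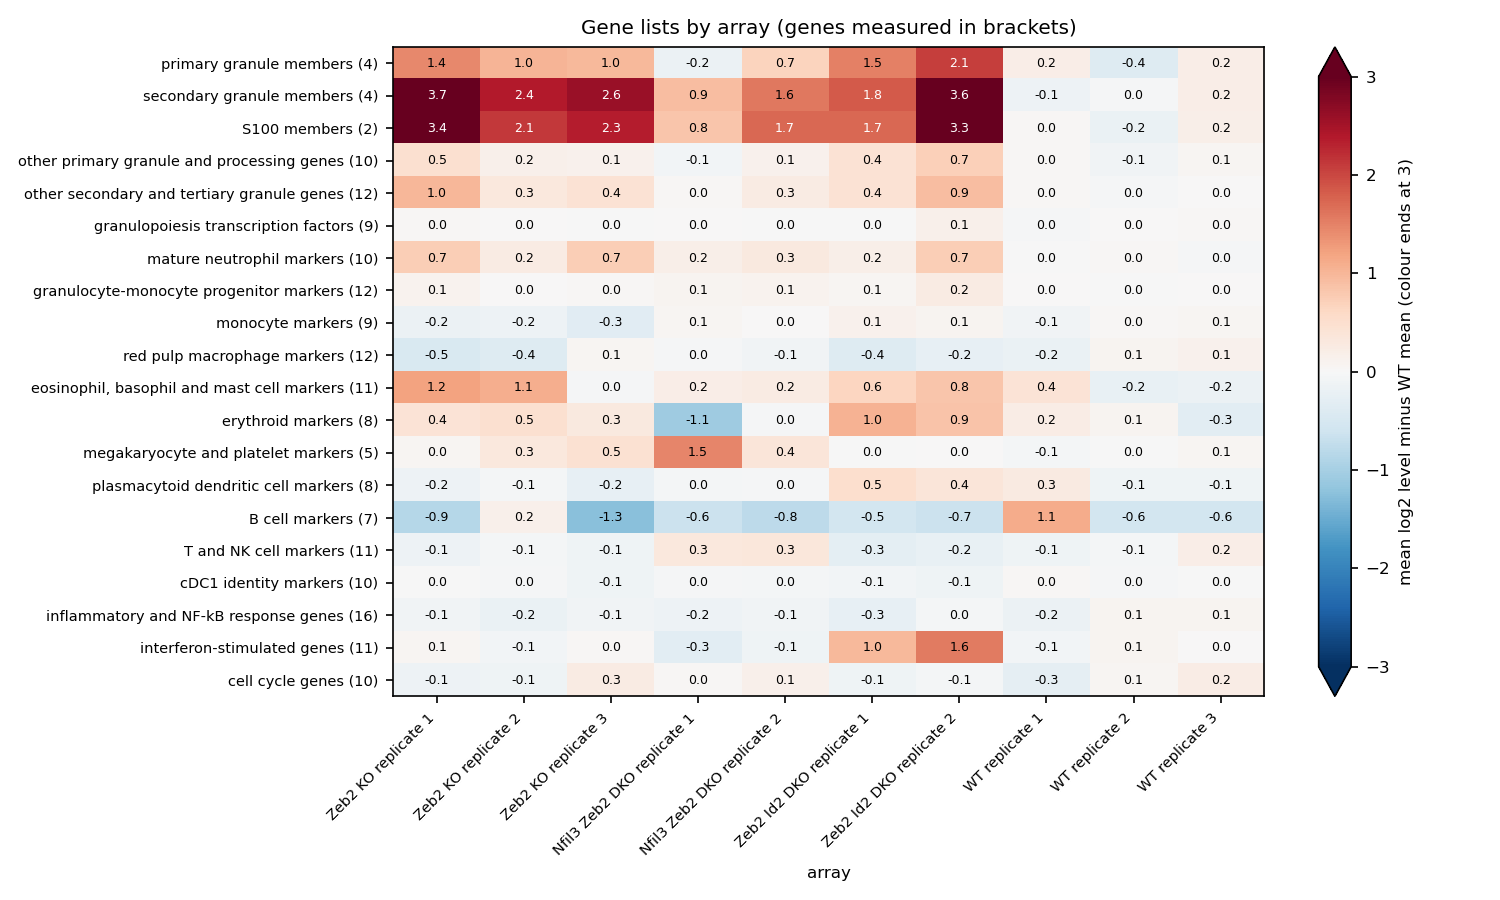
Mean log2 level of each gene list (down the page, genes measured in brackets) relative to its WT mean in each array (across the page, printed in each cell); the colour scale is capped at both ends. The secondary granule and S100 lists reach 3.71 and 3.44 in Zeb2 KO replicate 1. The progenitor list, which holds genes high in WT such as Kit, stays between -0.02 and 0.25 in all arrays.

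Chromosomal neighbours of the members were compared with WT as well. In Zeb2 Id2 DKO against WT, 1.43% of all genes were called in either direction. Camp, Ngp and Ltf lie on chromosome 9 in a stretch that also holds 27 other measured protein-coding genes. With 3 genes on either side, the 33 non-members had median log2 fold changes of 0.05 in Zeb2 KO and -0.01 in Zeb2 Id2 DKO, and 1 was called in Zeb2 Id2 DKO. That gene, singled out after its values were seen, was Tdgf1, the Cripto co-receptor gene (2.97-fold, log2 1.57, adjusted p = 0.0437; 1.42 in Zeb2 KO, adjusted p = 0.212). The 6 genes around Prtn3 and Elane on chromosome 10 lay between -0.05 and 0.28 (log2 fold change) in Zeb2 Id2 DKO, and between -0.03 and 0.21 in Zeb2 KO. Of the 6 genes around Mpo on chromosome 11, Tspoap1 fell in Zeb2 Id2 DKO (-0.77, adjusted p = 0.0134), also singled out after its values were seen. Around Ctsg on chromosome 14, Mcpt8 was the neighbour with the highest value in both genotypes (2.49 and 2.91 log2 in Zeb2 KO and Zeb2 Id2 DKO, not called). Around S100a8 and S100a9 on chromosome 3 it was S100a6 (0.38 and 1.12, not called).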

How the data were processed

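Each sample is 1 Affymetrix array of total RNA from sorted splenic cDC1s, amplified before labelling, per the labels' protocols. The deposited values are linear RMA intensities made by the authors in Affymetrix Expression Console, per the submitters' processing notes. They ran from 5.05 to 16019 over 28853 probe sets, and no pair of arrays was identical. RMA compresses differences between dim probe sets, and the number of arrays limits the precision. The authors' annotation is not given in these sources.

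Log2 of the intensities was taken. Of the probe sets, 21789 named 1 gene, 1621 several and 5443 none. Identifiers of 21698 matched the RefSeq gene table (GRCm38.p6), and 0 symbols changed. The probe set with the highest mean was kept for each of 19938 genes, with no filter on level. limma 3.58.1 in R 4.3.3 fitted a mean per genotype to all 10 arrays (6 residual and 4.47 prior degrees of freedom), and 6 comparisons were adjusted by Benjamini-Hochberg over all genes. The fit was tested on simulated data.

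The members, gene lists and tests were chosen with earlier results of these data known. Named genes are the 10 members, the deleted genes, called genes of the lists (up to 4 each, with leading genes as values) and the 10 genes nearest to each set by Pearson coefficient. Sequences are RefSeq promoter windows, and all 10 members matched. Alternatives were the mean of probe sets, other scaling, a filter on dim genes, fits of the compared genotypes only, trended and robust variances, array weights, the replicate number as a block and each array left out. Replicate numbers did not pair the arrays: correlations of same-numbered arrays' deviations from their group means ran from -0.31 to 0.16.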

Additional observations from a re-analysis of the deposited data

How the results depend on the processing

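Directions held better than calls. Against WT, no member changed sign in Zeb2 KO or Zeb2 Id2 DKO under any of the 19 alternatives run, but the number called did change. Percentages are the share of all genes called in the same fit. In Zeb2 KO it was 1 (0.0201%), and it was 0 with arrays centred on their median (0%) or with trended and robust variances (0.0251%), 6 with array weights (0.376%), 9 with WT replicate 1 and Zeb2 KO replicate 3 both removed (2.51%), and 0 to 7 with arrays left out (0% to 0.828%). In Zeb2 Id2 DKO it was 9 (1.43%), against 4 with trended and robust variances (1.35%) and 3 with the replicate block (0.918%). Whether the replicate numbers pair the arrays is not known. With a WT or Zeb2 KO array left out it was 3 to 10 (0.602% to 3.81%). Between Zeb2 Id2 DKO and Nfil3 Zeb2 DKO it was 0 (0.792%), against 4 when only those genotypes were fitted (4.18%), 5 with array weights (5.71%), 4 with those 2 arrays removed (4.8%) and 0 to 4 with arrays left out (0.115% to 3.53%). With the block, 1 member was called in Zeb2 KO against WT and 0 in the other 4 comparisons, as without it. The cause was not tested. Over all genes, Zeb2 KO against WT had 4 calls (0 to 500 over the alternatives), Nfil3 Zeb2 DKO against WT 1 (1 to 62), Zeb2 Id2 DKO against WT 286 (67 to 1104), Nfil3 Zeb2 DKO against Zeb2 KO 1 (1 to 266), Zeb2 Id2 DKO against Zeb2 KO 99 (20 to 256) and Zeb2 Id2 DKO against Nfil3 Zeb2 DKO 158 (23 to 1139). With an array left out, a lone remaining array is assumed to vary like the others.

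Signs turned only in members that were not called. In Nfil3 Zeb2 DKO against WT, with arrays left out, Mpo ran from -0.28 to 0.85, Elane from -0.28 to 0.71 and Ctsg from -0.27 to 0.43; they were negative without Nfil3 Zeb2 DKO replicate 2, and Mpo also without WT replicate 2 (-0.13). In Zeb2 Id2 DKO against Zeb2 KO, Ltf became 0.12 and S100a8 0.0734 with array weights. With arrays left out, Ngp ran there from -0.74 to 0.62, Ltf from -1.09 to 0.82, Lcn2 from -1.44 to 0.56, Camp from -0.91 to 0.86, S100a8 from -1.03 to 0.86 and S100a9 from -0.79 to 0.45, positive without Zeb2 Id2 DKO replicate 1 and, except Lcn2, without Zeb2 KO replicate 1.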
